A study of Rattus norvegicus with 6 samples.

Results

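Immediate early genes are switched on within minutes of a stimulus, from promoters that need no newly made protein. The group examined here holds 10 of them, Fos, Fosb, Jun, Junb, Egr1, Atf3, Ier2, Ier3, Dusp1 and Zfp36, found by gene symbol among the 20104 genes of the deposited tables. All 10 had a row in both tables, and 9 had enough counts to be tested, Fosb being the exception. RNA was sequenced from rat liver on day 14 after traumatic injury of the organ. AKOC dressed the wound in 3 libraries and Quik-clot, which served as control, in 3. Strain, sex and age are not stated in the labels used here, nor is the hour of collection or the delay between removal of the tissue and its preservation, and no uninjured liver is among the samples. Nothing in the labels ties each library to an animal of its own, and the spread behind each p-value may therefore be technical.

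In liver, these genes are known for their response to injury, partial hepatectomy, cytokines and growth factors, and also to tissue handling. Growth factor and stress signals reach them through the ERK, JNK and p38 mitogen-activated protein (MAP) kinases, which act on transcription factors such as SRF with its ELK partners, CREB and ATF2. FOS and JUN proteins pair to form AP-1, a factor that drives later genes, while DUSP1 and ZFP36 end the response by removing phosphate from MAP kinases and by sending short-lived mRNAs to decay. The transcripts themselves are unstable, so their level follows recent transcription.

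Total counts ran from 40402312 to 41455378 per library. Levels are given as CPM, the count relative to a library total rescaled by TMM (trimmed mean of M values), and as FPKM, which also divides by transcript length, where genes are compared with each other. Hepatocyte markers were abundant in each library, with 8 markers summing to 109040 to 184270 CPM. Quik-clot replicate 3 stood apart with the highest level of 12 of 13 acute phase genes, and the immediate early genes are given with and without it.

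RefSeq promoter windows of the GRCr8 rat assembly were found for 6 of the 10 genes, Fosb, Junb, Egr1, Ier2, Dusp1 and Zfp36, and not for Fos, Jun, Atf3 or Ier3. The 250 bases before the start are printed for Dusp1, which had the most negative fold change, Egr1, which had the only positive one, Ier2, whose groups lay closest, and Zfp36, whose groups did not overlap. Capitals mark matches to the motifs searched, on either strand. These were the cAMP response element (CRE) TGACGTCA, its half-site TGACG, the CArG box bound by SRF, the AP-1 site TGANTCA, the E-box CACGTG, the EGR site GCGNGGGCG and the TATA motif TATAAA.

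Dusp1, chr10:17184603-17184852, forward strand: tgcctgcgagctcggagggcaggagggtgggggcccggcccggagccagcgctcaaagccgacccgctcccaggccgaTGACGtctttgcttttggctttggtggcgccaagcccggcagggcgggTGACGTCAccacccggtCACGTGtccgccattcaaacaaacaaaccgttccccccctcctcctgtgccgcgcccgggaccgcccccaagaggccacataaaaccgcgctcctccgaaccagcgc
Egr1, chr18:26736828-26737077, forward strand: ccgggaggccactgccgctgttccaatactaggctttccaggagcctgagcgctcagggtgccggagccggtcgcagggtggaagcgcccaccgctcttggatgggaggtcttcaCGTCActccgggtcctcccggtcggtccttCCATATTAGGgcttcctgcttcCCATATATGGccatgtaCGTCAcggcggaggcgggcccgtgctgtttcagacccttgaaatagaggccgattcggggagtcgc
Ier2, chr19:40399123-40399372, forward strand: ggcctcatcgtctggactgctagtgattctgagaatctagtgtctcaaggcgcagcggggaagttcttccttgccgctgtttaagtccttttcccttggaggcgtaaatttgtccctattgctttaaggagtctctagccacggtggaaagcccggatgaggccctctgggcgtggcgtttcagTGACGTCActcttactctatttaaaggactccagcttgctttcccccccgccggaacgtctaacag
Zfp36, chr1:92799109-92799358, reverse strand: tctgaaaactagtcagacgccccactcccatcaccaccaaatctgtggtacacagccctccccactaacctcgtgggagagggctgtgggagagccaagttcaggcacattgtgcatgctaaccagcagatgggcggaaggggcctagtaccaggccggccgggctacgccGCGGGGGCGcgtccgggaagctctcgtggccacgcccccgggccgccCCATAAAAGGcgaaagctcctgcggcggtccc

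Dusp1 held a full CRE 124 to 117 bases before its start, a further half-site and an E-box, and Ier2 held a full CRE 66 to 59 bases before its start. A full CRE occurred in 1.59% of the 33469 rat promoter windows of this length. Egr1 held 2 CArG boxes, at 105 to 96 and 83 to 74 bases before its start, with a CRE half-site on either side of the pair. Zfp36 held 1 CArG box, 32 to 23 bases before its start, and 1 EGR site, and the CArG box occurred in 1.5% of windows. Junb held a CRE half-site and a TATA motif and Fosb a TATA motif alone. Half-sites occurred in 18.2% of windows, full CREs included, TATA motifs in 12.9%, E-boxes in 5.59%, EGR sites in 4.29% and AP-1 sites, matched in none of the 6, in 6.34%. These matches describe the letters in the windows and are not evidence of binding.

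The 2 dressings were compared gene by gene. Among the 9 tested genes, 8 had a negative log2 fold change, AKOC over Quik-clot, and Egr1 a positive one, with a median of -0.75 against -0.01 over all 13872 genes tested, of which 51.9% were negative. None of the 9 was called at a Benjamini-Hochberg adjusted p under 0.05 in the edgeR quasi-likelihood test, as was the case for all genes (0%). At an unadjusted p under 0.05 there were 2, Ier3 and Zfp36, both negative, against 5.57% of all genes tested in that direction and 6.48% in the other. These 2 were also the only ones whose CPM did not overlap between the dressings, against 8.84% of all genes that lay lower after AKOC without overlap. The median over the 9 genes was -0.13 without Quik-clot replicate 3, with 5 of them negative. With Quik-clot replicate 3 left out, Ier3 and Zfp36 remained the 2 members with an unadjusted p under 0.05 (9.32% of all genes, either direction). Leaving out AKOC replicate 1 gave 6 such members (11.1% of all genes), leaving out Quik-clot replicate 1 gave 4 (9.21%), and leaving out AKOC replicate 3 gave 3 (7.31%), Egr1 among them with a positive fold change. None of the 9 was called without AKOC replicate 1, AKOC replicate 2 or Quik-clot replicate 2, where 0.0709%, 0.0141% and 0.127% of all genes were, nor with the replicate number as a block (0.00721%). In bulk tissue, fewer cells of a type and less RNA per cell cannot be told apart.

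**Figure D1:**
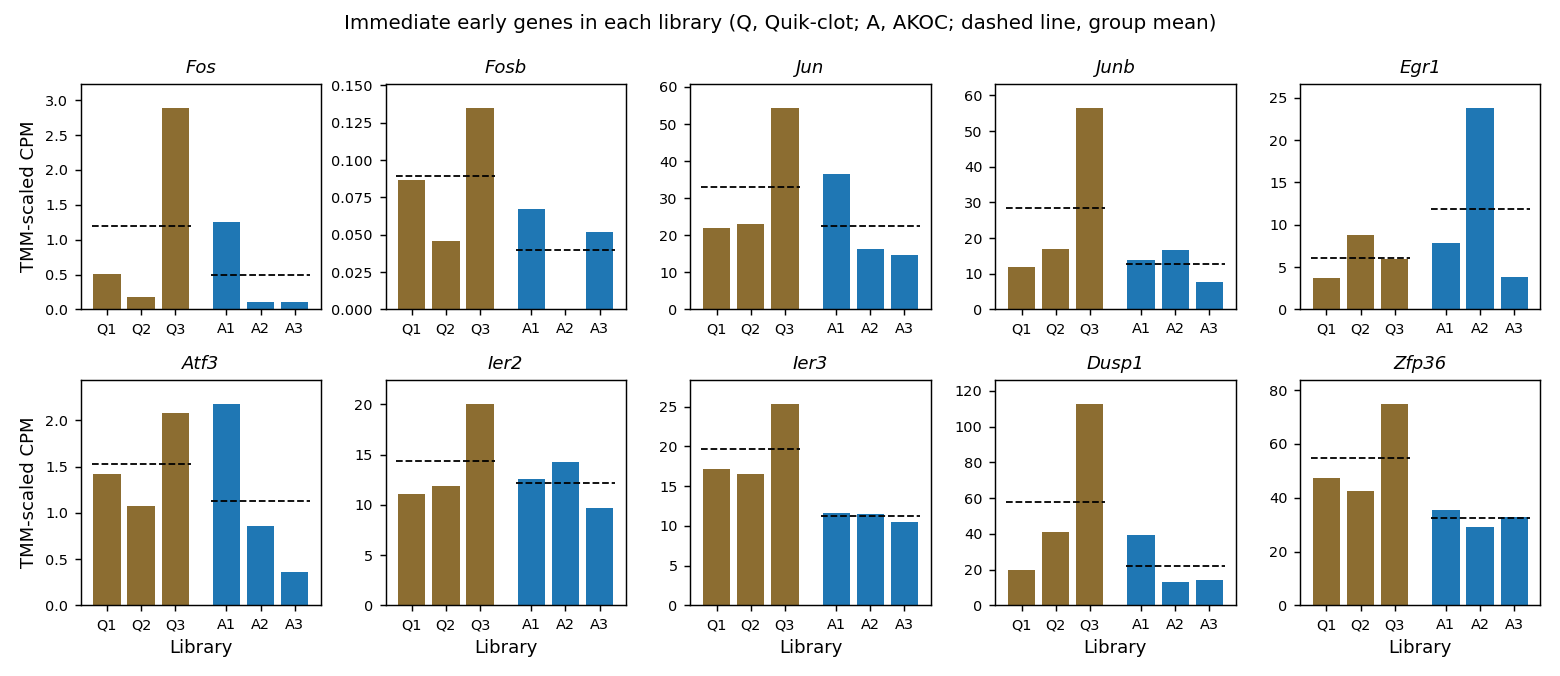
TMM-scaled CPM of each immediate early gene (vertical axis, from 0, a separate scale per gene) in the 3 Quik-clot (Q, brown) and 3 AKOC (A, blue) libraries; dashed lines are group means. Ier3 and Zfp36 do not overlap between the dressings, Quik-clot replicate 3 is the highest library for 8 of the 10 genes, and Egr1 peaks at 23.8 CPM in AKOC replicate 2.

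Ier3 encodes a small protein of the stress and survival response. Its level reached 17.2, 16.5 and 25.3 CPM in Quik-clot replicates 1, 2 and 3 and 11.7, 11.4 and 10.5 CPM in AKOC replicates 1, 2 and 3. Every AKOC library lay below every Quik-clot library, and the AKOC libraries differed by 1.11-fold between highest and lowest. The means were 11.2 ± 0.63 and 19.7 ± 4.90 CPM (SD, n = 3 per dressing). This gave a log2 fold change of -0.81 ± 0.18 (SE; 95% interval -1.24 to -0.39; edgeR adjusted p = 0.294). Over the libraries left out in turn it ran from -0.92 (Quik-clot replicate 2) to -0.59 (Quik-clot replicate 3). DESeq2 called the gene, with a log2 fold change of -0.82 ± 0.22 and an adjusted p of 0.0207, and its calls made up 1.87% of the genes to which it gave an adjusted p. Over the other alternatives the adjusted p of Ier3 ran from 0.114 to 0.676.

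Zfp36, which encodes tristetraprolin, a protein that binds AU-rich elements and brings mRNAs to the deadenylation machinery, followed Ier3 most closely. It was at 47.3, 42.5 and 74.9 CPM in Quik-clot replicates 1, 2 and 3 and at 35.6, 29.3 and 32.7 CPM in AKOC replicates 1, 2 and 3. The groups again did not overlap, with the smallest gap between Quik-clot replicate 2 and AKOC replicate 1. Zfp36 had a log2 fold change of -0.75 ± 0.22 (95% interval -1.27 to -0.24; edgeR adjusted p = 0.331) and -0.47 without Quik-clot replicate 3. Its adjusted p was 0.0813 in DESeq2 and 0.141 to 0.676 over the other alternatives.

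Dusp1, the nuclear MAP kinase phosphatase that is also a known glucocorticoid target, had the widest range among the members above 10 CPM on average. It was at 19.9, 41.2 and 112.8 CPM with Quik-clot, against 39.2, 13.2 and 14.4 CPM with AKOC, in the order of replicates 1, 2 and 3. AKOC replicate 1 lay above Quik-clot replicate 1, so the groups overlapped. Dusp1 had a log2 fold change of -1.38 ± 0.68 (95% interval -2.97 to 0.22; edgeR adjusted p = 0.452). Leaving out AKOC replicate 1 moved it to -2.07, and leaving out Quik-clot replicate 3 to -0.45.

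Among the AP-1 subunits, Fos was scarce. It had 23, 8 and 107 counts in Quik-clot replicates 1, 2 and 3 and 56, 4 and 4 in AKOC replicates 1, 2 and 3, or 0.500, 0.183, 2.89, 1.26, 0.107 and 0.104 CPM in that order. Both dressings thus held 1 library well above the rest, and the exact 95% Poisson intervals, which cover counting error only, did not overlap between AKOC replicate 1 (0.949 to 1.63 CPM) and AKOC replicate 2 (0.0291 to 0.273 CPM). The highest library exceeded the lowest by 27.7-fold over all 6. The log2 fold change of -1.24 ± 1.23 (edgeR adjusted p = 0.695) went to -3.45 once AKOC replicate 1 was left out and to 0.53 once Quik-clot replicate 3 was. Fosb, a close relative, had 4, 2 and 5 counts with Quik-clot and 3, 0 and 2 with AKOC. Each library was at or near the level of 3 counts, 0.0653 to 0.0810 CPM, and a difference was not detectable at this depth.

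Jun, the main partner of Fos, was far more abundant. It was at 21.9, 22.9 and 54.4 CPM with Quik-clot, against 36.5, 16.3 and 14.7 CPM with AKOC. The same pair of libraries as for Fos, Quik-clot replicate 3 and AKOC replicate 1, lay on top. Jun had a log2 fold change of -0.55 ± 0.47 (edgeR adjusted p = 0.646). Leaving out AKOC replicate 1 gave -1.09, and leaving out Quik-clot replicate 3 gave 0.0088.

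Junb, which competes with Jun for Fos partners and responds to cytokines, did not share the high value in AKOC replicate 1. It was at 12.01, 16.96 and 56.5 CPM with Quik-clot, against 13.9, 16.6 and 7.74 CPM with AKOC. Apart from Quik-clot replicate 3 the Quik-clot libraries lay among or just above the AKOC libraries. The log2 fold change of -1.16 ± 0.59 (edgeR adjusted p = 0.463) was -0.18 without that library.

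Atf3, a stress-induced repressor that can pair with Jun, was at 1.41, 1.08 and 2.08 CPM with Quik-clot, against 2.18, 0.854 and 0.365 CPM with AKOC. It was the only tested member highest in AKOC replicate 1. Its log2 fold change of -0.42 ± 0.62 (edgeR adjusted p = 0.807) went to -1.32 when AKOC replicate 1 was left out and to 0.0004 when AKOC replicate 3 was.

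Compared per length, Jun family transcripts outnumbered Fos family transcripts in every library. Jun, Junb and Jund summed to 32.2, 32.3 and 64.96 FPKM in Quik-clot replicates 1, 2 and 3 and to 45.6, 25.4 and 23.1 FPKM in AKOC replicates 1, 2 and 3. Fos, Fosb and Fosl2 summed to 1.446, 1.116 and 3.169 FPKM and to 1.92, 1.22 and 0.752 FPKM. The ratio of the sums lay between 20.5 and 30.7 in all 6 libraries and overlapped between the dressings. Fos gave 51.8% of the Fos family FPKM in Quik-clot replicate 3 and 44.4% in AKOC replicate 1, but 4.96% in AKOC replicate 2, where Fosl2 made up nearly all the rest.

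**Figure D2:**
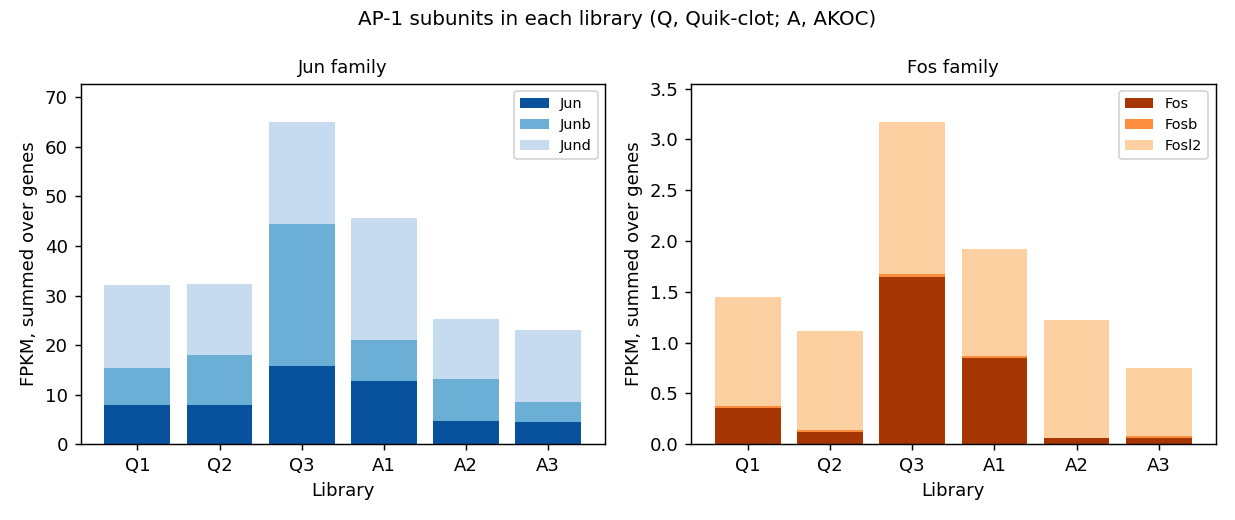
FPKM (vertical axis, from 0) of the Jun family (left) and Fos family (right), stacked by gene, in each Quik-clot (Q) and AKOC (A) library. Both families are highest in Quik-clot replicate 3 (64.96 and 3.17 FPKM) and next in AKOC replicate 1 (45.6 and 1.92 FPKM), and the 2 vertical scales differ.

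Egr1, a zinc finger factor classically driven by SRF, ran against the other members. It was at 3.68, 8.73 and 5.94 CPM with Quik-clot, against 7.83, 23.8 and 3.78 CPM with AKOC. AKOC replicate 2 alone was high, while AKOC replicate 3 lay beside the lowest Quik-clot library. Egr1 had a log2 fold change of 0.95 ± 0.64 (95% interval -0.57 to 2.46; edgeR adjusted p = 0.573) and turned to -0.07 without AKOC replicate 2. In that library Dusp1 and Egr1 stood at a ratio of 0.900 in FPKM, against 6.20 to 30.9 in the other libraries.

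Ier2, a nuclear protein of growth factor responses, had the narrowest range of the tested members, 2.07-fold between the highest and the lowest of the 6 libraries. It was at 11.07, 11.87 and 20.04 CPM with Quik-clot, against 12.5, 14.2 and 9.70 CPM with AKOC. The groups overlapped, and the log2 fold change was -0.24 ± 0.26 (edgeR adjusted p = 0.727), or 0.08 without Quik-clot replicate 3.

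**Figure D3:**
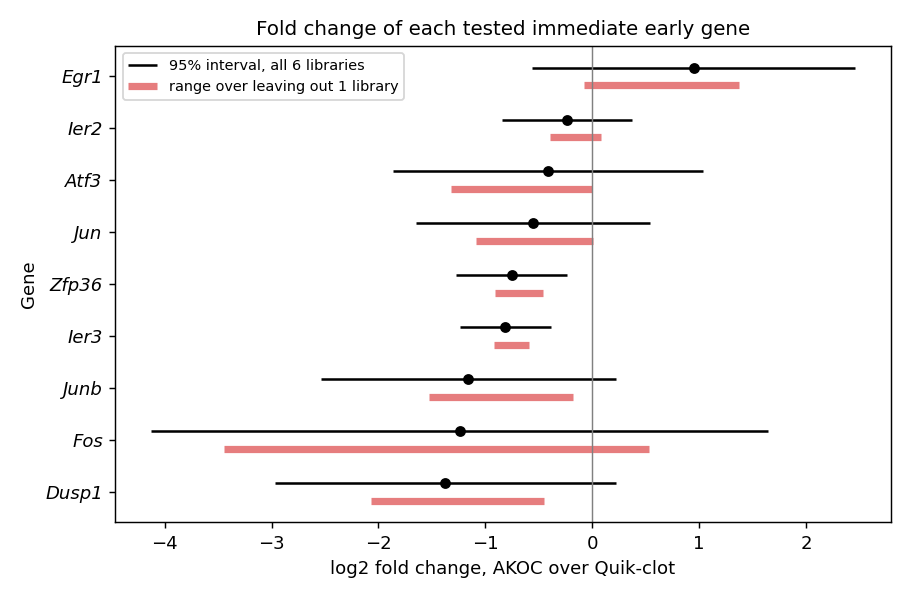
Log2 fold change, AKOC over Quik-clot (horizontal axis), of the 9 tested immediate early genes; points and black lines are the edgeR estimate and its 95% interval, red bars the range over leaving out each library in turn. Only the intervals of Ier3 (-1.24 to -0.39) and Zfp36 (-1.27 to -0.24) exclude 0, before adjustment for the genes tested; the red bars of Fos, Jun, Egr1, Atf3 and Ier2 reach or cross 0.

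Averaged over all 6 libraries and compared per length, the order of levels was Zfp36 (24.1 FPKM), Dusp1 (20.4), Ier3 (14.1), Junb (11.2), Jun (8.95), Ier2 (8.61), Egr1 (2.79), Atf3 (0.679), Fos (0.515) and Fosb (0.018). The FPKM ranges of neighbours in this order overlapped across libraries, except that Fos (0.0607 FPKM or more) stayed above Fosb (0.0341 FPKM or less). The members differed widely in how much replicates of a dressing varied. The SD of log2 CPM within a dressing was 1.82 for Fos, at percentile 99.25 of all tested genes, 1.08 for Dusp1 (percentile 96.6) and 1.04 for Egr1 (96.2). Ier3, at 0.25, lay at percentile 50.3 and Zfp36, at 0.32, at percentile 63.0. The 2 genes with an unadjusted p under 0.05 thus had the smallest SD of the 9, and their fold changes were smaller than those of Dusp1, Fos and Junb.

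Quik-clot replicate 3 held the highest CPM for 7 of the 9 tested members, as it did for 2779 of all 13872 genes tested, and AKOC replicate 3 the lowest for 6, as it did for 2450 of all genes. The median member lay 0.85 above its own mean over the 6 libraries in Quik-clot replicate 3, on the log2 CPM scale, and 0.13 above in AKOC replicate 1. It lay at -0.19 and 0.03 in Quik-clot replicates 1 and 2 and at -0.40 and -0.91 in AKOC replicates 2 and 3. The dressings therefore overlapped in this summary, AKOC replicate 1 standing above both of the lower Quik-clot libraries. Ier3 and Zfp36 had the most similar profiles within the group, with a root mean square difference of 0.11 in centred log2 CPM over the 6 libraries, and Fos and Egr1 the least similar, with 2.04.

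Of 11351 other genes compared with the median profile, the closest were Arl4d, Slc25a25, Pvr, Slc43a1 and Alox5ap, with root mean square differences from 0.14 to 0.17. Slc25a25, a mitochondrial ATP-magnesium/phosphate carrier, was at 57.5, 79.3 and 156.1 CPM with Quik-clot, against 82.4, 53.8 and 41.9 CPM with AKOC. Junb was matched best by Zc3h12a, which encodes the ribonuclease regnase-1 and stood at 22.1 CPM in Quik-clot replicate 3 against 3.08 to 6.97 CPM in the others. Zfp36 was matched best by Timp3, an inhibitor of matrix metalloproteinases, and Ier3 by the scaffold gene Homer1. Egr1 was matched best by Plat, the tissue plasminogen activator gene, with 4.72 CPM in AKOC replicate 2 against 1.38 to 2.36 CPM elsewhere. For the other members the nearest genes were H19 for Fos, Slc25a25 for Jun, Egln3 for Atf3, Map7d1 for Ier2 and Clec4m for Dusp1. With 6 libraries and so many genes, close matches of this kind carry no test.

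Other early response genes were mostly lower in estimate without passing the test. Of 44 tested from a list of 50, 36 had a negative log2 fold change, with a median of -0.32, 0 were called by edgeR, and at an unadjusted p under 0.05 there were 9 lower and 0 higher, against 5.57% and 6.48% of all genes. The 4 of smallest p among them did not overlap between dressings, a feature favoured by the choice by p. Of the 44, 7 lay lower after AKOC without overlap, against 8.84% of all genes. Gadd45b, a growth arrest and stress gene, was at 4.53, 5.18 and 11.1 CPM with Quik-clot, against 2.94, 2.64 and 1.88 CPM with AKOC (log2 fold change -1.47 ± 0.38; edgeR adjusted p = 0.303). Nfkbiz, a nuclear cofactor of NF-kappa-B, was at 45.4, 47.4 and 59.7 CPM against 29.3, 39.6 and 28.5 CPM (-0.65 ± 0.17). Irf1, an interferon regulatory factor, was at 28.8, 30.5 and 23.7 CPM against 21.1, 22.0 and 18.0 CPM (-0.44 ± 0.14). Phlda1 was at 3.09, 1.47 and 7.81 CPM against 1.44, 0.934 and 1.20 CPM (-1.78 ± 0.59). The value for Phlda1 was -0.94 without Quik-clot replicate 3, and its unadjusted p was then no longer under 0.05, nor was it when AKOC replicate 2 was left out. Without Quik-clot replicate 3, 28 of the 44 were negative, with a median of -0.11 and 4 lower and 1 higher at an unadjusted p under 0.05 (9.32% of all genes, either direction). There were also 4 lower once AKOC replicate 2 (7.99%) or AKOC replicate 3 (7.31%) was left out, with 1 higher in the first case, and 14 lower once AKOC replicate 1 was (11.1%).

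The MAP kinase phosphatases related to Dusp1 included 3 of 8 tested genes with an unadjusted p under 0.05, all lower after AKOC and none overlapping, with 0 called by edgeR. Over all genes, 5.57% were lower at that p and 8.84% lower without overlap. Dusp5, which acts on ERK in the nucleus, was at 6.61, 4.06 and 5.21 CPM with Quik-clot, against 2.92, 2.11 and 2.14 CPM with AKOC (log2 fold change -1.15 ± 0.25; edgeR adjusted p = 0.290). Unlike Dusp1, it was not highest in Quik-clot replicate 3, and its log2 fold change was -1.16 without that library. Without Quik-clot replicate 1, its highest library, the log2 fold change of Dusp5 was -0.95. Dusp10, a phosphatase of JNK and p38, was at 0.935, 1.329 and 1.999 CPM against 0.763, 0.560 and 0.756 CPM (-1.03 ± 0.38), and Dusp16 had -0.33 ± 0.14. Dusp7, a cytoplasmic ERK phosphatase, had -0.27 ± 0.16. The median over the 8 was -0.39. At an unadjusted p under 0.05 there was 1 in place of 3 when AKOC replicate 2 (7.99% of all genes, either direction), AKOC replicate 3 (7.31%) or Quik-clot replicate 3 (9.32%) was left out, and there were 2 when any other library was.

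Among 10 other AP-1 and ATF relatives the median was -0.38, with 0 called by edgeR. At an unadjusted p under 0.05 there were 1 lower and 0 higher, against 5.57% and 6.48% of all genes. The lower one was Mafg, a small Maf protein that pairs with AP-1 and NRF2 type factors, at 39.6, 31.2 and 34.2 CPM with Quik-clot, against 22.3, 21.4 and 19.2 CPM with AKOC (log2 fold change -0.74 ± 0.12; edgeR adjusted p = 0.258). Its log2 fold change of -0.75 without Quik-clot replicate 3 was close to that with it, and it was -0.64 without Quik-clot replicate 1, its highest library. Jund, the constitutive Jun relative, had 0.01 ± 0.26, Fosl2 -0.24 ± 0.30 (0.09 without Quik-clot replicate 3), Mafk -0.51 ± 0.23 and Jdp2 -0.51 ± 0.32. In DESeq2, Mafg, Gadd45b and Dusp5 were each called lower (adjusted p = 0.00188, 0.0143 and 0.00855). Each was the only DESeq2 call in its list, of 10, 44 and 8 tested genes. DESeq2 calls made up 1.87% of the genes to which it gave an adjusted p.

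Of the Zfp36 family and the decay machinery, 1 of 11 tested genes was lower at an unadjusted p under 0.05, against 5.57% of all genes. None was higher at that p (6.48% of all genes), and 0 were called by edgeR or DESeq2. Zfp36l2, a paralog of Zfp36 with the same type of zinc fingers, was at 30.4, 30.2 and 26.7 CPM with Quik-clot, against 24.2, 16.4 and 21.1 CPM with AKOC (log2 fold change -0.50 ± 0.16; edgeR adjusted p = 0.339), and the groups did not overlap. Of the 11, 1 lay lower after AKOC without overlap, near the 8.84% of all genes. Zfp36l1, the most abundant of the 3 paralogs per length at 55.9 to 96.5 FPKM, overlapped between the dressings (-0.18 ± 0.25, or 0.11 without Quik-clot replicate 3), and the decay partners Cnot1 and Hnrnpd had -0.23 ± 0.13 and -0.20 ± 0.17. Of 10 genes whose mRNAs carry AU-rich elements, cytokine and chemokine genes among them, 6 were tested. Of these, 5 were negative and 0 had an unadjusted p under 0.05, with Il1b at -0.70 ± 0.33 and Cxcl1 at -0.79 ± 0.99. Cxcl1 went to 0.23 once Quik-clot replicate 3 was left out and to -2.40 once AKOC replicate 2 was. Protein and mRNA decay were not measured.

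The upstream kinases and transcription factors centred near 0, with a median log2 fold change of -0.02 over 32 tested genes and 0 called by edgeR or DESeq2. Of the 32, 3 were higher and 2 lower at an unadjusted p under 0.05, near the 6.48% and 5.57% of all genes. Crem, a cAMP-responsive modulator, was at 32.2, 48.5 and 41.2 CPM with Quik-clot, against 54.1, 64.6 and 56.4 CPM with AKOC (0.52 ± 0.17). Mapk9, which encodes JNK2, had 0.60 ± 0.20 and the receptor gene Egfr 0.70 ± 0.28. Srf, the factor that binds CArG boxes, was at 15.1, 12.3 and 17.2 CPM against 12.12, 10.995 and 11.37 CPM (-0.37 ± 0.15), without overlap. Of the 32, 3 lay higher and 2 lower after AKOC without overlap, near the 9.53% and 8.84% of all genes. None of the 32 had an unadjusted p under 0.05 when AKOC replicate 2 was left out (7.99% of all genes, either direction). None was lower at that p when AKOC replicate 1, AKOC replicate 3 or Quik-clot replicate 3 was left out.

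**Figure D4:**
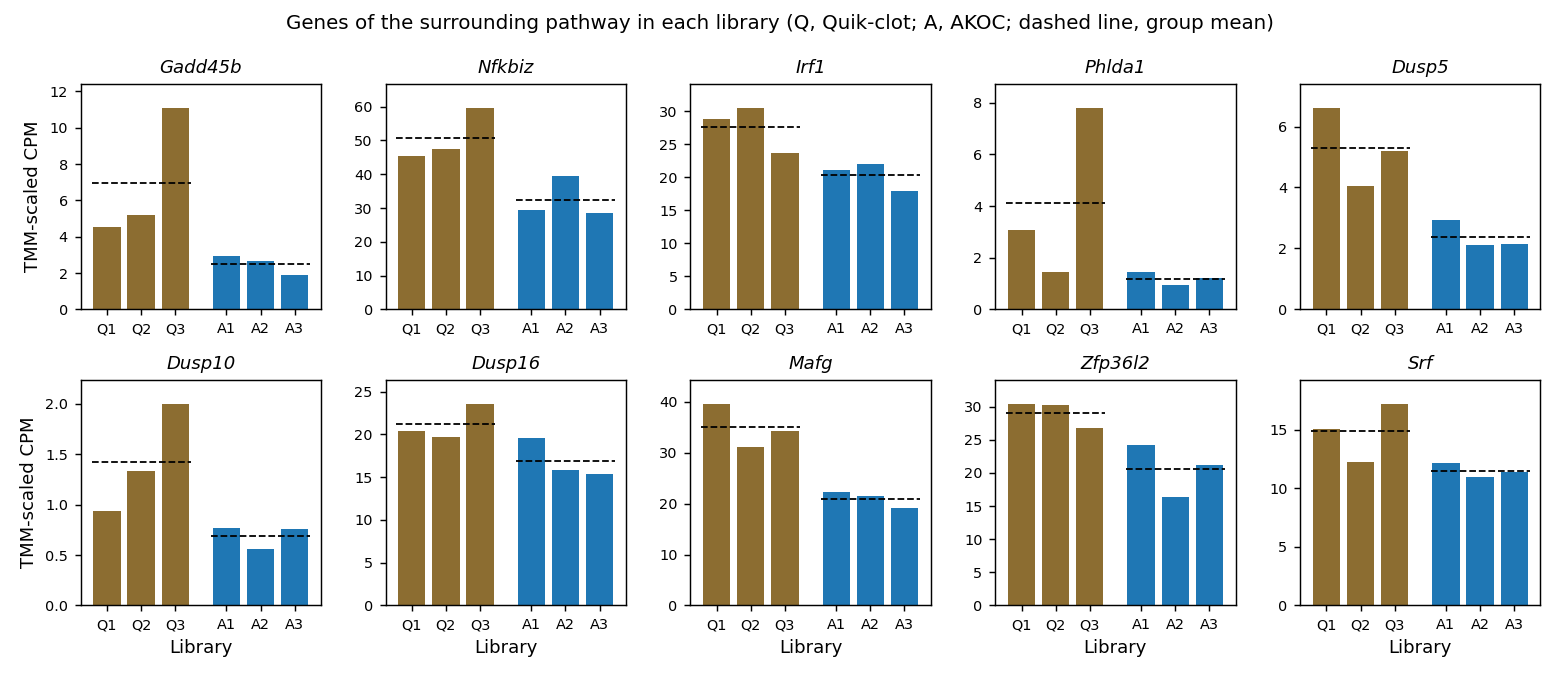
TMM-scaled CPM (vertical axis, from 0, a separate scale per gene) of 10 pathway genes among those of smallest unadjusted p in their lists, by library (Q, Quik-clot; A, AKOC; dashed lines, group means). The groups do not overlap in any panel, a feature favoured by the choice by p, and Dusp5, Mafg, Irf1 and Zfp36l2 are not highest in Quik-clot replicate 3. Every gene shown is lower after AKOC. Crem, Mapk9 and Egfr, of smaller p than Srf in the same list, are higher after AKOC and are not shown.

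Several other gene lists also differed between libraries, some in an order unlike that of the members, and their part in the results was not tested. Acute phase genes had a median of 0.97 in Quik-clot replicate 3 and 0.41 in AKOC replicate 2, on the centred log2 CPM scale, and -0.65 to -0.17 in the other libraries. A2m was at 2402 CPM and Lcn2 at 3166 CPM in Quik-clot replicate 3, against at most 91.4 and 262.3 CPM elsewhere, and Serpina3n and Il1r1 were highest there too. Socs3, a cytokine-induced inhibitor in the early response list, likewise stood at 50.2 CPM there against 5.71 to 11.96 CPM. The 7 neutrophil markers summed to 7.90, 18.8 and 108.5 CPM with Quik-clot, against 48.7, 31.04 and 12.8 CPM with AKOC, with 5 of the 7 abundant enough to test. The pair of libraries highest in Fos and Jun thus also had the highest neutrophil sums, and no marker of the list was at 0 in all libraries. Macrophage and Kupffer cell markers, 10 of 10 tested, summed to 953.5, 1634 and 1190 CPM and to 1138, 1174 and 810.7 CPM, highest in Quik-clot replicate 2, where no member was highest. T and NK cell markers summed to 13.6, 38.5 and 13.6 CPM and to 10.3, 12.8 and 10.5 CPM, with 7 of 8 tested. All 7 were negative, at a median log2 fold change of -1.002. Cd247, Prf1 and Gzma were lower at an unadjusted p under 0.05 (5.57% of all genes) and lower without overlap (8.84%). Without Quik-clot replicate 2 the median was -0.33, with 5 negative and 1 lower at that p.

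Among the 15 clock genes, 3 were higher and 10 lower at an unadjusted p under 0.05, against 6.48% and 5.57% of all genes. EdgeR called 0, and the median log2 fold change was -0.83. DESeq2 called 7 of the clock genes, Bmal1 and Npas2 as higher and Dbp, Tef, Nr1d2, Per3 and Ciart as lower. Its calls made up 1.87% of the genes to which it gave an adjusted p. In edgeR, Npas2 had a log2 fold change of 4.34 ± 0.88 and Tef one of -0.83 ± 0.17. Bmal1 was at 7.88, 6.32 and 9.67 CPM with Quik-clot, against 20.6, 36.7 and 35.8 CPM with AKOC, and Dbp at 21.9, 28.3 and 20.2 CPM against 8.33, 3.42 and 3.54 CPM. AKOC replicate 1, the AKOC library with the highest Fos, Jun, Atf3 and Dusp1, was also the AKOC library nearest to the Quik-clot libraries in Bmal1 and Dbp. When it was left out, edgeR called 4 clock genes, Bmal1 as higher and Dbp, Nr1d2 and Per3 as lower, against 0.0709% of all genes called. Heat shock genes, also known to respond to handling, had 5 of 10 lower at an unadjusted p under 0.05, against 5.57% of all genes, and 0 called by edgeR. The 5 included Hspa8 (-0.92 ± 0.25), Hsph1 (-0.53 ± 0.15), Bag3 (-0.69 ± 0.20) and Dnajb1 (-0.56 ± 0.20). The median of the heat shock genes was highest in Quik-clot replicate 1 (0.64) and stood at -0.08 in Quik-clot replicate 3, an order unlike that of the members. DESeq2 called 1 of the heat shock genes, Hspa8, as lower (adjusted p = 0.0155). In edgeR there were 3 lower at an unadjusted p under 0.05 when AKOC replicate 2 (7.99% of all genes, either direction), AKOC replicate 3 (7.31%) or Quik-clot replicate 1 (9.21%) was left out.

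Glucocorticoid targets were examined as well, in a list of 13 added after the values were seen, since Dusp1, Zfp36 and Per1 are known targets. There were 10 negative, against 51.9% of all genes, and 0 called by edgeR. At an unadjusted p under 0.05 there were 3 lower and 0 higher, against 5.57% and 6.48% of all genes. There were 6 lower when AKOC replicate 2 was left out (7.99% of all genes, either direction) and 1 when AKOC replicate 3 was (7.31%). Leaving out Quik-clot replicate 1 (9.21%) or Quik-clot replicate 3 (9.32%) gave 2. Fkbp5, a co-chaperone of the receptor, was at 24.98, 18.45 and 55.72 CPM with Quik-clot, against 16.5, 15.4 and 11.7 CPM with AKOC (log2 fold change -1.18 ± 0.40). Without Quik-clot replicate 3 the value for Fkbp5 was -0.58. Zbtb16 had -1.96 ± 0.52 and was the 1 gene of this list of 13 that DESeq2 called (adjusted p = 0.00370), against 1.87% of all genes given an adjusted p. Per1 had -0.66 ± 0.24. Mt2A had -2.05 ± 1.03, which went to -0.80 once Quik-clot replicate 3 was left out and to -3.64 once AKOC replicate 2 was. The list median was highest in Quik-clot replicate 3 (0.60) and lowest in AKOC replicate 3 (-0.48), the same ends as for the immediate early genes.

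**Figure D5:**
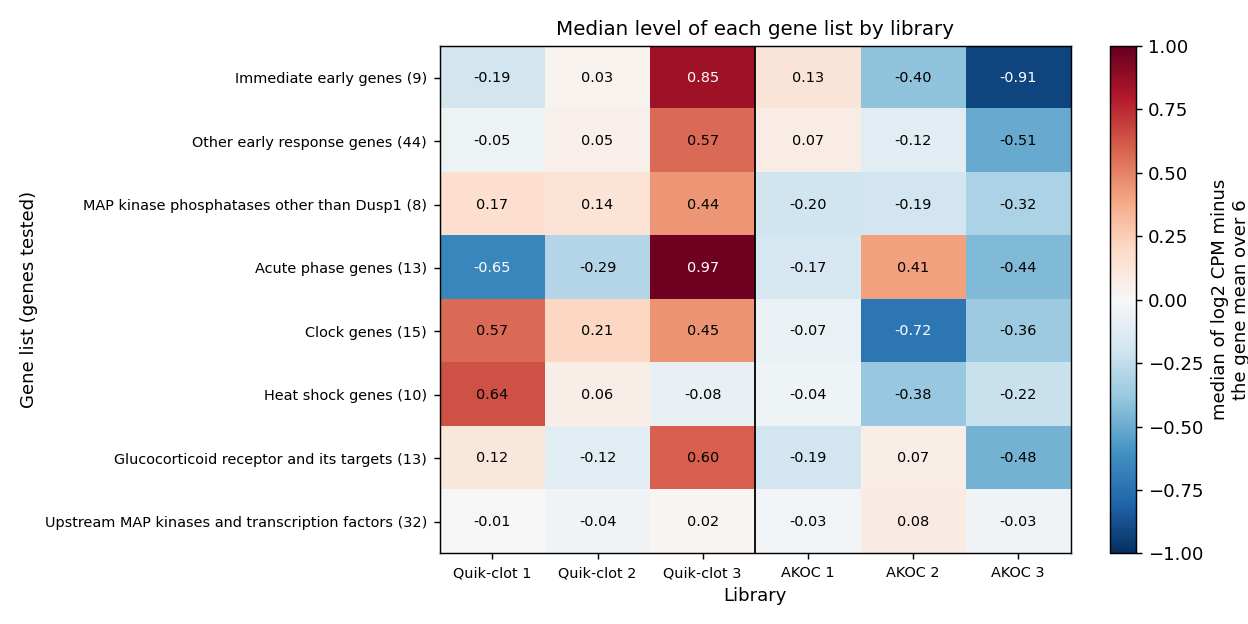
Median over each gene list of log2 CPM minus the gene's mean over the 6 libraries (colour and printed value), by library; the number of tested genes is in parentheses. The median of the immediate early genes is 0.85 for Quik-clot replicate 3 and -0.91 for AKOC replicate 3, the other early response genes have the same ends (0.57 and -0.51), and the upstream kinases stay within -0.04 and 0.08.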

How the data were processed

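The authors deposited whole-number read counts per gene without normalization and, separately, FPKM for the same genes and libraries; per the submitters' processing notes, fastp, HISAT2 and HTSeq were used with the mRatBN7.2 build. Tool versions, the annotation and the use of strand were not given in the sources used here. Transcript lengths implied by the deposited counts and FPKM agreed between libraries within a relative 5.79e-08, so both tables hold the same measurement.

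Genes were filtered with filterByExpr (minimum count 10, minimum total 15), leaving 13872. AKOC was set against Quik-clot with edgeR 4.0.16 in R 4.3.3 (glmQLFit and glmQLFTest, TMM scaling, two-sided, a model of dressing alone), with p-values adjusted over all these genes by Benjamini-Hochberg; called means adjusted p under 0.05. The SE is the size of the log2 fold change divided by the square root of F. Profiles used log2 CPM with a prior count of 2. A 3 against 3 permutation test cannot go below p = 0.1 and was not used.

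The members and gene lists were chosen with earlier results of these data known. Of each list, up to 4 genes with a mean of at least 1 CPM and the smallest p are named; further genes (Jund, Socs3, Nr1d2, Per3, Ciart, Cd247, Prf1, Gzma, Zfp36l1 beside its paralogs, the ratio of Dusp1 to Egr1 and the glucocorticoid list) were chosen after values were seen. The 5 genes nearest the median profile, and the nearest gene to each tested member, are named by root mean square difference. Alternatives were DESeq2 1.42.0, 2 other scalings, no filter, limma-trend 3.58.1 on log2(FPKM + 1) and log2(FPKM + 0.1), a replicate block and leaving out each library. No pair of libraries within a dressing agreed within sampling noise. Near-identical and overlapping genes may share reads. No protein sequences were used.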

Additional observations from a re-analysis of the deposited data

How the results depend on the processing

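With all 6 libraries edgeR called 0 genes, and 0 of the immediate early genes; 1671 genes had an unadjusted p under 0.05. DESeq2 called 274 (183 higher, 91 lower), Ier3 being the 1 member among them, and limma-trend called 0. Leaving out a library gave 0 to 18 called genes and 0 called members, and 2 to 6 members with an unadjusted p under 0.05. The 6, without AKOC replicate 1, were Fos, Jun, Atf3, Ier3, Dusp1 and Zfp36, and the 4 without Quik-clot replicate 1 were Junb, Ier3, Dusp1 and Zfp36. Ier3 and Zfp36 kept a negative fold change and an unadjusted p under 0.05 under all 13 alternatives. With libraries left out in turn, log2 fold changes ran from -3.45 to 0.53 for Fos, -1.09 to 0.0088 for Jun and -0.392 to 0.0843 for Ier2, turning positive without Quik-clot replicate 3, from -0.0742 to 1.375 for Egr1, negative without AKOC replicate 2, and from -1.32 to 0.0004 for Atf3, positive without AKOC replicate 3; the cause was not tested. Scaling by library totals only moved the median of all genes from -0.01 to -0.09 and that of the members to -0.79, and no member changed direction. With the replicate block edgeR called 1 gene and 0 members. Same-numbered libraries did not deviate together over all genes (correlations of -0.07, -0.08 and -0.20). The labels do not say whether the number pairs libraries, and 3 correlations over all genes cannot settle it. Fos, Fosb and Atf3 are limited by their low counts.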
